A study of Mus musculus with 8 samples.

Results

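*Neat1*, *Malat1* and 5 protein genes of the paraspeckle were described in mouse cerebellum with and without *Atm*, as 7 genes of the 56691 in the deposited count table. The proteins are encoded by *Sfpq*, *Nono*, *Pspc1*, *Rbm14* and *Tardbp*. The genes were picked by name, with the earlier result known that *Neat1* was among the 4 genes that differed between the genotypes in this same comparison. Their differences between genotypes are therefore given as values without a test. All 7 passed the filter on low counts.

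RNA was sequenced from the cerebellum at an age of 6 months, in 1 library per mouse, for 4 *Atm*-WT and 4 *Atm*-KO mice. The mice came from crosses of heterozygous B6;129S4-Atmtm1Bal/J animals, so that the *Atm*-KO mice (Atm-/-) carried the targeted allele in all cells and the controls (Atm+/+) were littermates. The labels give no treatment. By the letter in their labels, *Atm*-KO mouse 7F was female, and *Atm*-KO mice 1M, 11M and 12M and *Atm*-WT mice 2M, 7M, 13M and 32M were male. Sex was read from this letter alone. The only mouse labelled F is an *Atm*-KO mouse, so sex and genotype are not fully separate.

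Paraspeckles are small bodies in the nucleus that form on the long isoform of the noncoding RNA *Neat1*. Proteins of the DBHS family, SFPQ, NONO and PSPC1, coat this RNA, and RBM14 helps to hold the body together through its disordered domain. The short isoform of *Neat1* ends at an ordinary polyadenylation site and does not build paraspeckles alone. TDP-43, the product of *Tardbp*, binds *Neat1* and favours the short isoform. *Malat1*, transcribed from the gene next to *Neat1*, is an abundant noncoding RNA of neurons and other cells that gathers in nuclear speckles, where splicing factors are stored. The mature *Malat1* RNA and the long *Neat1* isoform have no poly(A) tail. Instead, RNase P cuts each transcript in front of a small RNA shaped like a tRNA, and the new end folds into a helix of 3 strands in which U-rich stretches pair with an A-rich tract.

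These ends are shown because they set how the RNAs are kept and how they may enter a library. Both were read from the reference genome (GRCm39) on the minus strand of chromosome 19 and are printed 5′ to 3′ as DNA letters, the U-rich stretches and the closing A-rich tract in capitals. The *Neat1* end at chr19:5874736-5874855 meets the annotated end of the gene. The *Malat1* end at chr19:5846010-5846129 lies 293 bases before the annotated end.
Neat1 end: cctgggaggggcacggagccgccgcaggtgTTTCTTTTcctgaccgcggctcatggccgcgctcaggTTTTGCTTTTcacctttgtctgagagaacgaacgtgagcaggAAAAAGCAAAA
Malat1 end: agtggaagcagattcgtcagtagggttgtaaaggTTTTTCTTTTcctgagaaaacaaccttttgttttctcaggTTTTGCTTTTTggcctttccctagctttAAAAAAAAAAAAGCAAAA

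The 56 bases that follow each tract are the region of the small tRNA-like RNA. After *Neat1* they lie at chr19:5874680-5874735 and match the annotated small RNA gene *Gm55522*. After *Malat1* they lie at chr19:5845954-5846009, inside the annotated *Malat1* gene.
Following Neat1: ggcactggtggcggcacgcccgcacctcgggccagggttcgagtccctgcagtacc
Following Malat1: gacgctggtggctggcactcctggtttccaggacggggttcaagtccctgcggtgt
Aligned to each other, the 56 bases were identical at 39 positions and mismatched at 16, with 2 gap positions. *Gm55522* had between 0 and 3 counts per library, so the small RNA was not measured here.

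*Neat1* (ENSMUSG00000092274, chr19:5874736-5897132, minus strand) was read at 55.1, 57.1, 52.6 and 44.7 CPM (counts scaled to a common library size with TMM factors) in *Atm*-WT mice 2M, 7M, 13M and 32M. In *Atm*-KO mice 1M, 7F, 11M and 12M it was read at 96.2, 79.2, 79.2 and 86.0 CPM. Every *Atm*-KO library lay above every *Atm*-WT library, and the gap between the nearest of them, 57.1 and 79.2 CPM, was wider than the range within either genotype. The mean was 52.4 ± 5.45 CPM in *Atm*-WT mice and 85.1 ± 8.04 CPM in *Atm*-KO mice (SD, n = 4 each), and the log2 fold change was 0.70 (SE 0.090). These values rest on 3829 to 7854 counts per library. With any library left out, the log2 fold change lay between 0.63 and 0.75.

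*Malat1* (ENSMUSG00000092341, chr19:5845717-5853602, minus strand) was read at 7460.4, 7021.9, 7988.8 and 3631.1 CPM in *Atm*-WT mice 2M, 7M, 13M and 32M. In *Atm*-KO mice 1M, 7F, 11M and 12M it was read at 12859.9, 8095.1, 8572.1 and 13104.2 CPM. The genotypes did not overlap, but only just, since the lowest *Atm*-KO library (7F) and the highest *Atm*-WT library (13M) were close. Mouse 32M lay far under the other *Atm*-WT mice, and mice 1M and 12M far above the other *Atm*-KO mice. The mean was 6526 ± 1970 CPM in *Atm*-WT mice and 10658 ± 2693 CPM in *Atm*-KO mice (SD, n = 4 each), and the log2 fold change was 0.71 (SE 0.24). The fold of *Malat1* was thus close to that of *Neat1* while its error was larger. Without mouse 32M the log2 fold change of *Malat1* was 0.51. *Malat1* took between 0.369% and 0.779% of all counts in *Atm*-WT libraries and between 0.801% and 1.34% in *Atm*-KO libraries.

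The ratio of *Malat1* to *Neat1* counts overlapped between the genotypes, at 81.3 to 151.8 in *Atm*-WT libraries and 102.3 to 152.3 in *Atm*-KO libraries. The lowest ratio was that of *Atm*-WT mouse 32M, in which both RNAs were at their lowest. The counts are per gene, so the short and the long isoform of *Neat1* could not be told apart.

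**Figure D1:**
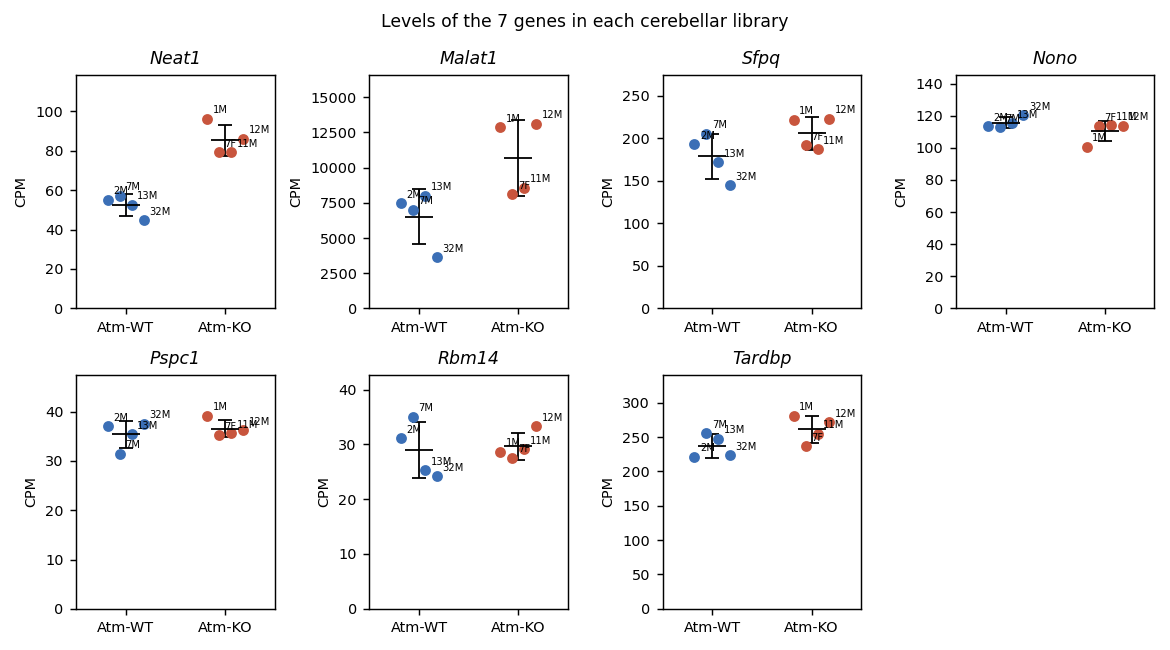
CPM of the 7 genes in each library, by genotype, each panel with its own axis from 0. Points are mice with their label, the horizontal bar is the mean and the error bar the SD (n = 4 mice per genotype). *Neat1* and *Malat1* do not overlap between the genotypes, whereas the 5 protein genes do.

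Among the DBHS proteins, the levels overlapped between the genotypes for each gene. *Sfpq* (ENSMUSG00000028820, chr4:126915079-126930806, plus strand), which encodes the protein needed to keep *Neat1* stable, was read at 193.1, 205.1, 171.8 and 144.6 CPM in *Atm*-WT mice 2M, 7M, 13M and 32M and at 221.8, 191.4, 186.7 and 222.6 CPM in *Atm*-KO mice 1M, 7F, 11M and 12M. Its log2 fold change was 0.20 (SE 0.11), and 0.11 without mouse 32M. Mice 1M and 12M, the highest for *Malat1*, were also the highest for *Sfpq*, and mouse 32M was again the lowest.

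*Nono* (ENSMUSG00000031311, chrX:100472901-100492202, plus strand) encodes the partner with which SFPQ and PSPC1 form dimers. It was read at 113.4, 112.9, 115.4 and 120.4 CPM in *Atm*-WT mice and at 100.8, 113.4, 114.0 and 113.8 CPM in *Atm*-KO mice, in the same order of mice, with a log2 fold change of −0.064 (SE 0.061). Mouse 1M stood apart, under all other libraries, and without it the log2 fold change was −0.023. Mouse 7F, the only mouse labelled F, was at 113.4 CPM and so level with most mice labelled M for this X-linked gene. *Pspc1* (ENSMUSG00000021938, chr14:56958166-57015804, minus strand), which encodes the protein that first named the paraspeckle, ranged from 31.4 to 37.6 CPM in *Atm*-WT mice and from 35.2 to 39.2 CPM in *Atm*-KO mice, with a log2 fold change of 0.049 (SE 0.075). Summed over *Sfpq*, *Nono* and *Pspc1*, the DBHS genes were read at 302.6 to 349.4 CPM in *Atm*-WT mice and at 336.4 to 372.7 CPM in *Atm*-KO libraries, which overlapped.

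*Rbm14* (ENSMUSG00000006456, chr19:4850597-4861663, minus strand) lies on the same chromosome as *Neat1* and *Malat1*. It ranged from 24.2 to 35.0 CPM in *Atm*-WT mice and from 27.6 to 33.3 CPM in *Atm*-KO mice, with a log2 fold change of 0.037 (SE 0.12). *Tardbp* (ENSMUSG00000041459, chr4:148696839-148711490, minus strand) was read at 221.4, 255.5, 247.4 and 223.5 CPM in *Atm*-WT mice and at 280.7, 236.9, 254.8 and 271.3 CPM in *Atm*-KO mice, with a log2 fold change of 0.14 (SE 0.075). For *Tardbp*, mice 1M and 12M again lay above all *Atm*-WT mice and mice 7F and 11M among them. The differences of *Pspc1* and *Rbm14* were smaller than their standard errors and changed sign when single libraries were left out, at −0.0082 for *Pspc1* without *Atm*-WT mouse 7M and at −0.041 for *Rbm14* without mouse 32M.

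Per kb of exon, *Malat1* was the highest of the 7 genes and *Neat1* the lowest in both genotypes. *Malat1* reached 827.5 ± 249.7 CPM per kb in *Atm*-WT mice and 1351.5 ± 341.4 CPM per kb in *Atm*-KO mice, and *Neat1* 2.34 ± 0.243 and 3.801 ± 0.359 CPM per kb (SD, n = 4 each). In *Atm*-WT mice, *Sfpq* (32.8 CPM per kb) and *Tardbp* (30.3 CPM per kb) overlapped, *Nono* (21.1 CPM per kb) lay under both, and *Rbm14* (7.11 CPM per kb) and *Pspc1* (6.05 CPM per kb) overlapped below it. The order of the means was the same in *Atm*-KO mice, in which *Rbm14* and *Pspc1* no longer overlapped. The level of *Neat1* was divided by 22.4 kb of annotated exon, the span of its long isoform, so it is understated to the extent that reads came from the short isoform.

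Some exons are shared with other genes, and the strand setting of the counting was not given in the sources used here. A count without strand would treat genes nested in the exons of another gene alike on both strands. Of nested genes with at least 200 exonic bases in a host of at least 10 CPM, 155 of 159 on the opposite strand had counts, against 42 of 63 on the same strand, in an annotation that is not the one used for counting. *Gm37376* lies wholly inside the *Malat1* exon on the opposite strand (453 bases) and had 442 to 870 counts, at most 0.151% of the *Malat1* count of the same library. *Frmd8os* covers 412 exonic bases of *Neat1* on the opposite strand and had 49 to 113 counts. *Tardbp* overlaps *Masp2* on the opposite strand over 2585 exonic bases, *Rbm14* shares 727 exonic bases with *Gm21992* on its own strand and 349 with *Gm21844* on the other, and *Sfpq* shares 216 with *Gm12940* on its own strand. The annotated small RNAs inside *Neat1* (*Gm55523*, *Gm55524* and *Gm55525*) and *Malat1* (*Gm55521*), all on the strand of their host, had 0 counts in every library.

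Across all 22423 genes tested, the quasi-likelihood test of edgeR (Benjamini-Hochberg adjustment) called 4 genes (0.0178%) at an adjusted p under 0.05, and limma voom called 3 (0.0134%). DESeq2 called 1046 of 20724 genes higher (5.05%) and 506 lower (2.44%) in *Atm*-KO mice. At an unadjusted edgeR p under 0.05, 2622 genes (11.7%) were higher and 1902 (8.48%) lower. Without overlap of the genotypes in CPM were 1450 higher genes (6.47%) and 1149 lower genes (5.12%). *Neat1* and *Malat1* are among the genes without overlap. Both were chosen with results of this comparison known, so their place there carries no weight. The median log2 fold change was −0.018 over all genes tested, −0.061 over 15322 protein-coding genes and 0.13 over 3339 lncRNA genes.

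The libraries differed in composition as well. *Atm* was read at 71.5 ± 10.1 CPM in *Atm*-WT mice and 45.4 ± 4.16 CPM in *Atm*-KO mice (SD, n = 4 each), without overlap, with a log2 fold change of −0.66 (SE 0.10), an adjusted p of 0.0775 by edgeR and a two-sided exact permutation p of 0.0286, the smallest that 4 against 4 libraries allow. The counts are per gene, so where along *Atm* the remaining reads fell was not tested. Total counts ranged from 76912738 to 88030300 in *Atm*-WT libraries and from 65967130 to 78431478 in *Atm*-KO libraries. TEC genes, a GENCODE class of predicted transcripts awaiting experimental proof that often fall in introns, took 0.204% to 0.333% of counts in *Atm*-WT libraries and 0.354% to 0.529% in *Atm*-KO libraries, and the median log2 fold change of the 1723 tested was 0.68. For this class, too, mouse 32M was the lowest of all and mice 1M and 12M were the highest. Mitochondrial genes took 0.903% to 1.199% in *Atm*-WT libraries and 0.565% to 0.952% in *Atm*-KO libraries, lowest in mice 12M and 1M. The part of this composition in the levels of *Neat1* and *Malat1* was not tested.

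Markers of the cerebellar cell types were all detected. Granule cell markers summed to 5934 to 7412 CPM in *Atm*-WT mice and 6517 to 8823 CPM in *Atm*-KO libraries, and Purkinje cell markers to 9449 to 11552 and 9316 to 11039 CPM. Of the 85 markers in the 9 lists, edgeR and limma voom called 0 and DESeq2 called 11, against 5.05% of all genes higher and 2.44% lower by DESeq2. At an unadjusted p under 0.05, 6 of 10 microglia markers, 4 of 10 Bergmann glia and astrocyte markers, and 3 each of 10 oligodendrocyte, 10 endothelial, 10 mural and fibroblast and 8 choroid plexus markers were lower in *Atm*-KO mice, as was 1 of 10 Purkinje cell markers, while 1 of 10 granule cell markers was higher and 0 of 6 red blood cell markers passed. Over all genes these shares were 8.48% lower and 11.7% higher. Microglia markers summed to 147.4 to 195.2 CPM in *Atm*-WT mice and 112.7 to 147.9 CPM in *Atm*-KO libraries. The summed CPM of glial lists, in *Atm*-WT and then in *Atm*-KO libraries, ranged from 5425 to 6203 and from 4816 to 5615 for Bergmann glia and astrocytes, and from 3486 to 4532 and from 2102 to 3604 for oligodendrocytes, lowest in mouse 12M. In bulk tissue, fewer cells of a type and less RNA per cell cannot be told apart, and the part of these shifts in the levels of the 7 genes was not tested.

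**Figure D2:**
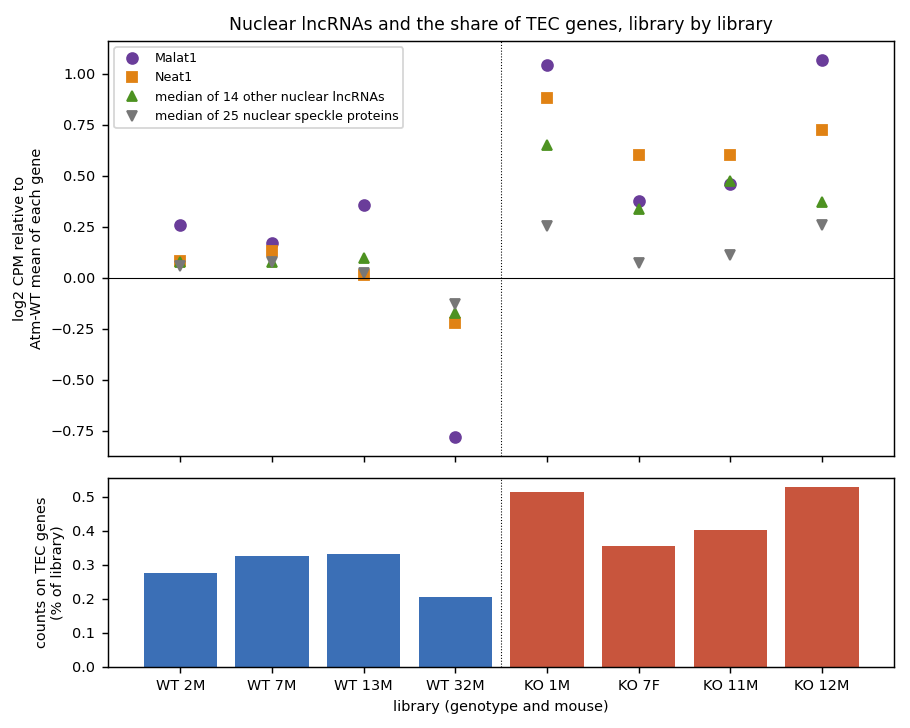
Upper panel, log2 CPM of *Malat1*, *Neat1*, the median of 14 other nuclear lncRNAs and the median of 25 nuclear speckle protein genes in each library, relative to the *Atm*-WT mean of each gene. Lower panel, share of counts on TEC genes in percent of the library. *Atm*-WT mouse 32M is the lowest of all libraries in each measure, and *Atm*-KO mice 1M and 12M are the highest for *Malat1* and for the TEC share.

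Of 36 other paraspeckle proteins, all were tested and none was called by edgeR or limma voom, while DESeq2 called 2 higher and 1 lower, against 5.05% and 2.44% of all genes. At an unadjusted edgeR p under 0.05, 5 were higher and 2 lower in *Atm*-KO mice, against 11.7% and 8.48% of all genes, and 3 were higher and 1 lower without overlap, against 6.47% and 5.12%. With the main scaling and filter, these shares are near those of all genes. Under the alternatives, 3 to 9 of the 36 were higher at an unadjusted p under 0.05. The list was chosen with earlier results of these data known. The median log2 fold change was 0.041, with 23 of the 36 genes above 0, against 46.9% of all genes and 36.2% of protein-coding genes tested. Over the alternatives this median lay between 0.018 without *Atm*-WT mouse 32M and 0.091 with library size alone. *Akap8l*, which encodes a nuclear RNA-binding relative of the anchoring protein AKAP8, was read at 33.7 ± 6.60 CPM in *Atm*-WT mice and 51.1 ± 6.60 CPM in *Atm*-KO mice (SD, n = 4 each), and the log2 fold change was 0.60 (SE 0.14, adjusted p = 0.0938 by edgeR with Benjamini-Hochberg adjustment). *Ewsr1*, which encodes an RNA-binding protein of the FET family, had a log2 fold change of 0.23 (adjusted p = 0.133 by edgeR). On the other side, *Hnrnpf*, which encodes a splicing regulator, had 60.3 ± 1.65 CPM in *Atm*-WT mice and 51.7 ± 0.933 CPM in *Atm*-KO mice (SD, n = 4 each), and its log2 fold change was −0.22 (SE 0.056, adjusted p = 0.0994 by edgeR). *Ahdc1* (−0.20, adjusted p = 0.242 by edgeR) and *Hnrnpul1* (−0.12, adjusted p = 0.248 by edgeR) followed.

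The 25 nuclear speckle proteins, which share their compartment with *Malat1*, had positive log2 fold changes in 22 genes, with a median of 0.14. Of all genes tested 46.9% were above 0, and of protein-coding genes 36.2%. Over the alternatives the list median lay between 0.12 without *Atm*-KO mouse 12M and 0.22 without *Atm*-WT mouse 7M. None was called by edgeR or limma voom, and DESeq2 called 7 higher and 0 lower, against 5.05% and 2.44% of all genes. At an unadjusted edgeR p under 0.05, 10 were higher and 0 lower, against 11.7% and 8.48% of all genes, and 8 were higher without overlap, against 6.47% of all genes. This list, too, was chosen with earlier results of these data known, so its counts are no independent comparison with all genes. *Srsf11* (0.43, SE 0.089), *Srsf6* (0.38, SE 0.081) and *Srsf5* (0.52, SE 0.11), which encode splicing factors rich in serine and arginine, each had an adjusted p of 0.0931 by edgeR. The speckle genes below 0 were *Srsf4* (−0.064), *U2af2* (−0.042) and *Pnn* (−0.0033), with adjusted p values of 0.676, 0.698 and 0.988 by edgeR. With single libraries left out *Srsf4* ranged from −0.10 to −0.013. The sign turned under 2 of the alternatives for *U2af2* and under 8 for *Pnn*. *Son* and *Srrm2*, whose proteins form the core of the speckle, had log2 fold changes of 0.20 and 0.14 and overlapped between the genotypes. Here also the median of the list was lowest in mouse 32M (−0.13 on the log2 scale relative to the *Atm*-WT mean) and highest in mice 1M (0.25) and 12M (0.26).

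Of 22 factors that cut, process or bind the ends of such RNAs, none was called by edgeR or limma voom, and DESeq2 called 1 higher and 0 lower, against 5.05% and 2.44% of all genes. At an unadjusted edgeR p under 0.05, 1 was higher and 1 lower, against 11.7% and 8.48% of all genes. The median log2 fold change was −0.011 and lay between −0.050 and 0.040 over the alternatives, so no direction is given for these factors. *Cpsf1*, which encodes the largest subunit of the factor that recognises polyadenylation signals, was read at 45.0 ± 2.16 CPM in *Atm*-WT mice and 56.0 ± 4.13 CPM in *Atm*-KO mice (log2 fold change 0.32, SE 0.070, adjusted p = 0.0931 by edgeR). *Cstf2* and *Ints11*, of the cleavage stimulation factor and the Integrator complex, both had 0.13, with adjusted p values of 0.328 and 0.358 by edgeR, and *Cstf2* had 0.082 without *Atm*-WT mouse 2M. Among subunits of RNase P, *Rpp25* (−0.60, SE 0.25), *Rpp38* (−0.36, SE 0.21) and *Rpp25l* (−0.25, SE 0.14), which encodes a relative of RPP25, had adjusted p values of 0.207, 0.356 and 0.320 by edgeR. All 3 were low, at 3.01, 3.19 and 7.84 CPM in *Atm*-WT mice. Single libraries moved the values of *Rpp38* (−0.23 without *Atm*-WT mouse 32M) and *Rpp25l* (−0.16 without *Atm*-KO mouse 12M). Of the other subunits, *Rpp30* (0.17) and *Pop1* (0.10) lay above 0, and *Pop7* (−0.16), *Rpp14* (−0.089), *Rpp21* (−0.052), *Pop5* (−0.018), *Rpp40* (−0.017) and *Pop4* (−0.0039) below it. *Elac2*, whose product cuts the small RNA of *Malat1* at its other end, had a log2 fold change of 0.036, and *Mettl16*, whose product binds the *Malat1* helix, one of −0.018.

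Among 14 other lncRNAs, most but not all of them known from the nucleus, edgeR and limma voom called none and DESeq2 called 8 higher and 0 lower. At an unadjusted edgeR p under 0.05, 8 were higher and 0 lower, against 11.7% and 8.48% of all genes, and 7 were higher without overlap, against 6.47%. By DESeq2, 5.05% of all genes were higher and 2.44% lower. The list was chosen with earlier results of these data known, so its counts and median describe it and are no independent comparison. The median log2 fold change was 0.48, against 0.13 for all lncRNA genes tested. *Snhg11* was read at 385.5 ± 66.1 CPM in *Atm*-WT mice and 667.8 ± 130.4 CPM in *Atm*-KO mice (log2 fold change 0.79, SE 0.15, adjusted p = 0.0931 by edgeR). *Meg3*, an imprinted RNA abundant in neurons, was read at 554.3 ± 111.6 and 962.7 ± 179.8 CPM (0.80, SE 0.16, adjusted p = 0.0931 by edgeR), and *Ftx*, a neighbour of *Xist* on the X chromosome, at 32.9 ± 7.84 and 54.8 ± 9.24 CPM (0.74, SE 0.17, adjusted p = 0.0942 by edgeR). The folds of these RNAs were of the size seen for *Neat1* and *Malat1*. The lncRNAs below 0 included *Peg13* (−0.14), *Norad* (−0.14), which acts largely in the cytoplasm, and *Pantr1* (−0.10), with adjusted p values of 0.255, 0.405 and 0.832 by edgeR. *Norad* was at −0.064 without *Atm*-KO mouse 12M, and *Pantr1* ranged from −0.24 without *Atm*-KO mouse 7F to 0.078 without mouse 12M. *Tug1*, found in both compartments, had −0.020. Whether the folds go with the place of an RNA in the cell was not tested. The median of the list was −0.17 in mouse 32M and 0.076 to 0.097 in the remaining *Atm*-WT libraries, and it was 0.33 to 0.65 in *Atm*-KO libraries. Without mouse 32M the median log2 fold change of the list was 0.41, and 8 genes were higher and 1 lower at an unadjusted edgeR p under 0.05. The lowest median over the libraries left out was 0.35, without *Atm*-KO mouse 1M, with 8 genes higher and 0 lower.

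**Figure D3:**
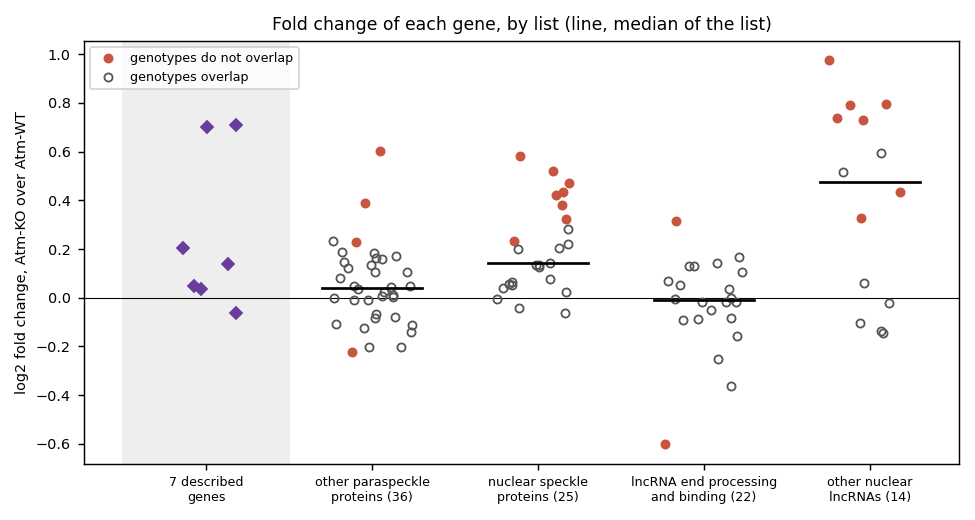
Log2 fold change (*Atm*-KO over *Atm*-WT) of each gene in the 4 lists and, shaded, of the 7 described genes, which were not tested. Filled circles are genes whose CPM do not overlap between the genotypes, open circles those that overlap, and lines are list medians, which were 0.041, 0.14, −0.011 and 0.48 from left to right.

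Of the 24 other genes within 100 kb of *Neat1* or *Malat1*, 17 were tested by edgeR and limma voom and 16 had an adjusted p from DESeq2, and none was called by any of the 3. At an unadjusted edgeR p under 0.05, 5 were higher and 0 lower, against 11.7% and 8.48% of all genes, and the median log2 fold change was −0.013. *Frmd8os* (0.65, SE 0.24), which overlaps *Neat1*, and *Gm37376* (0.56, SE 0.21), which lies inside *Malat1*, each had an adjusted p of 0.176 by edgeR, as had *Ltbp3* (0.29, SE 0.11), whose protein holds latent TGF-beta in the matrix. *Pola2* (0.33), which encodes a subunit of DNA polymerase alpha, had an adjusted p of 0.239 and *Znrd2* (1.28, SE 0.57, on 4 to 39 counts) one of 0.240 by edgeR. The log2 fold change of *Znrd2* became 2.15 when *Atm*-WT mouse 2M was left out. *Frmd8*, next to *Neat1* on the same strand, had −0.17 (SE 0.092) and an adjusted p of 0.320 by edgeR.

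**Figure D4:**
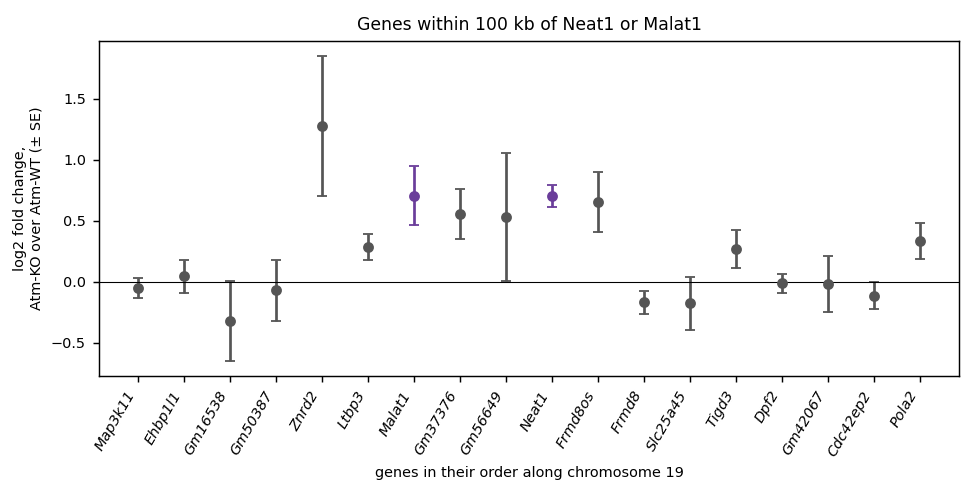
Log2 fold change (*Atm*-KO over *Atm*-WT) with its standard error for *Neat1*, *Malat1* and tested genes within 100 kb, in their order along chromosome 19 (n = 4 mice per genotype). *Frmd8*, the protein-coding gene next to *Neat1*, has −0.17, against 0.70 and 0.71 for *Neat1* and *Malat1*.

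The genes most like *Neat1* were found by the root mean square difference of log2 CPM, each gene relative to its own *Atm*-WT mean, over the 8 libraries and 9955 genes with a mean of at least 10 CPM. The 8 libraries include both genotypes, so a gene with the same fold is favoured. Nearest were *Mapk11* (0.103), *Mettl17* (0.123), *Nktr* (0.123), *Pnisr* (0.124) and *Zfp692* (0.131), all protein-coding and none on chromosome 19. *Mapk11* went from 12.9 ± 0.792 CPM in *Atm*-WT to 20.7 ± 2.10 CPM in *Atm*-KO mice. *Malat1* was only the 330th gene in this order, with a difference of 0.292 from *Neat1*. Nearest to *Malat1* were the TEC genes *6430511E19Rik* (0.0797) and *Gm47260* (0.106) and the lncRNA genes *6720427I07Rik* (0.109), *Lncppara* (0.109) and *Kcnq1ot1* (0.113), and *Neat1* was the 124th. Each of these 5 genes was lowest in mouse 32M and highest in mice 1M and 12M, as *Malat1* was. *Neat1* had the same extremes with a narrower spread, at −0.22 in mouse 32M against −0.78 for *Malat1* on the log2 scale.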

How the data were processed

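The authors checked the reads with FastQC 0.11.9, aligned them with STAR to GRCm39 with a GENCODE annotation, summed them per gene with featureCounts, and deposited the raw counts, not normalized. Strand and pair settings and the selection of RNA (poly(A) or depletion) were not given in the sources used here. Since the long *Neat1* and *Malat1* lack a tail, that selection affects their levels. Between 67.3% and 73.3% of counts from 1 to 50 were even, so whether a count is a read or a pair was not settled.

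Identifiers were matched without version to GENCODE vM39 (56017 of 56691). Sequences were read from the GRCm39 genome. Counts were kept by filterByExpr, scaled by TMM and tested with glmQLFit and glmQLFTest of edgeR 4.0.16 (R 4.3.3), with Benjamini-Hochberg adjustment over 22423 genes. DESeq2 1.42.0, limma 3.58.1 voom, other scalings and filters, and each library left out in turn were alternatives. Log2 CPM used a prior count of 2, and standard errors came from the fold change and its F value. The procedure was tested on simulated data.

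Named genes were the 7, *Atm*, in each list the 3 of smallest p per direction, the tested genes within 100 kb, and the 5 most alike, *Pnisr* and *Kcnq1ot1* being also list members. *Son*, *Srrm2*, *Elac2*, *Mettl16*, *Rpp30*, *Pop1*, *Pop4*, *Pop5*, *Pop7*, *Rpp14*, *Rpp21*, *Rpp40* and *Tug1* were named for their function after their values were seen. A few genes that these rules name are not reported here singly and stay in the counts and medians. Members and lists were chosen with earlier results of these data known.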

Additional observations from a re-analysis of the deposited data

Results flagged for a closer look

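In 6 of 150 groups of 4 libraries, the highest or lowest library stood apart from the other 3 by more of the whole range than Dixon's critical value allows. Chance flags about 1 in 20 groups, which would be 7.5 groups here. *Nono* was at 100.8 CPM in *Atm*-KO mouse 1M and between 113.4 and 114.0 CPM in the other *Atm*-KO mice. *Ahdc1* was at 107.9 CPM in *Atm*-KO mouse 7F and between 93.5 and 95.9 CPM in the others. *U2af2* was at 86.4 CPM in *Atm*-WT mouse 13M and between 90.8 and 91.3 CPM in the others. *Rpp25* was at 1.21 CPM in *Atm*-KO mouse 12M and between 2.15 and 2.29 CPM in the others. *Ftx* was at 21.2 CPM in *Atm*-WT mouse 32M and between 35.6 and 38.0 CPM in the others. The median over the other nuclear lncRNAs, on the log2 scale relative to the *Atm*-WT mean, was −0.17 in *Atm*-WT mouse 32M and between 0.076 and 0.097 in the other *Atm*-WT mice.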

How the results depend on the processing

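The log2 fold changes of the 7 genes moved by less than the spread between replicates under every alternative run. Where 1 of 4 libraries is left out, the mean can hardly move by more than that spread, so those runs say little here. *Malat1* went from 0.71 to 0.51 without *Atm*-WT 32M, and *Pspc1* and *Rbm14* changed sign when single libraries were left out. edgeR called 2 genes higher and 2 lower. DESeq2 called 1046 and 506, edgeR without a filter on low counts 416 and 175, limma voom 1 higher, and at least 10 counts in every library left 1 lower. With each library left out in turn, 0 to 11 were called higher and 1 to 16 lower. No gene was called higher without *Atm*-WT 2M, *Atm*-KO 1M or *Atm*-KO 11M and 1 without *Atm*-WT 7M, and 1 was called lower in each of these 4 cases. Without *Atm*-WT 13M the counts were 11 and 16, without *Atm*-WT 32M 8 were lower, and without *Atm*-KO 12M 4 were lower. For higher calls without *Atm*-KO 7F the count was 3, as for lower calls.

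Of the other paraspeckle proteins, DESeq2 called 3 and edgeR without the filter 2. Of the nuclear speckle proteins they called 7 and 6, of the end factors 1 and 1, and of the other nuclear lncRNAs 8 and 8, against 0 each in edgeR with the filter. The *Atm* difference of −0.66 passed with DESeq2 (−0.66, adjusted p = 2.01e-05), without the filter (−0.66, adjusted p = 0.00402) and without *Atm*-WT 32M (−0.74, adjusted p = 0.0315), and lay between −0.74 and −0.59 with each library left out in turn. Over all alternatives the adjusted p of *Atm* ran from 2.01e-05 to 0.249. The cause of these differences was not tested. At an unadjusted p under 0.05, higher paraspeckle proteins numbered 9 with library size alone, with TMM on protein-coding genes or without *Atm*-KO 7F, 8 with at least 10 counts in every library, and 3 without *Atm*-KO 1M or 12M, against 5. Higher end factors numbered 3 with TMM on protein-coding genes, and 2 with library size alone, with at least 10 counts or without *Atm*-WT 7M or 32M, against 1. The shares of all genes under these settings are not given here. The median log2 fold change over all genes was 0.031 with library size alone and 0.025 with TMM on protein-coding genes, against −0.018. No paired analysis was possible because the labels pair no mice. Depth limits the lowest genes, such as *Frmd8os* (49 to 113 counts) and *Znrd2* (4 to 39 counts).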
